A study of Mus musculus with 3 samples.

Results

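The AP-1 transcription factor subunits were examined in mouse bone marrow (BM) cells after treatment with leukocyte cell-derived chemotaxin 2 (LECT2), a cytokine secreted by the liver. The members were the 9 genes whose symbol in the deposited tables is Fos, Fosb, Fosl1, Fosl2, Jun, Junb, Jund, Batf or Atf3, of 17250 genes listed in all. Each symbol had a single row. BM cells were flushed from the leg, hip and upper arm bones of C57BL/6 mice aged 6 to 8 weeks, and mRNA was sequenced from 1 library after 0 days, 1 after 3 days and 1 after 5 days of LECT2. Recombinant LECT2 was given under the skin at 300 μg per kg once a day, and according to the methods BM was taken 4 h past the last dose. The label of the 0-day library names no injection, and the sources used here give neither the number of mice behind a library nor whether the 0-day mice received vehicle. A legend in the supplement calls the cells BM mononuclear cells, while the methods describe flushing only. No knockout or transgene was involved. Since each time point is represented by 1 library, none of the differences could be checked against replicates, and no p-value was computed.

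AP-1 is a dimer of basic leucine zipper (bZIP) proteins. The Fos proteins (Fos, Fosb, Fosl1 and Fosl2) pair with the Jun proteins (Jun, Junb and Jund) and cannot form stable dimers among themselves, whereas the Jun proteins can also pair with each other. Batf and Atf3 are smaller relatives that pair mainly with Jun proteins, and Batf lacks a transactivation domain. The dimers bind a short palindrome, TGACTCA, known as the TPA response element (TRE), and some combinations also bind the cAMP response element (CRE), TGACGTCA. Fos, Fosb, Jun, Junb and Atf3 are immediate early genes, whose transcription is switched on within minutes by growth factors, cytokines or stress, and whose mRNAs are short-lived. Fosl1 and Fosl2 are typically induced later, and Jund is in many cells transcribed without induction. In blood cells, AP-1 takes part in monocyte and macrophage differentiation, in cytokine transcription and, through Batf, in lymphocyte differentiation.

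The promoters of Fos, Fosb, Jun and Junb are shown because transcription of these immediate early genes is regulated close to the start site. Of the 9 genes, 8 had a window in the RefSeq promoter table (GRCm38.p6), which runs from 250 bases before to 50 bases after the start site, and Fosl1 had none. The RefSeq start lay within 51 bases of the start of the GENCODE M21 gene for Fos, Fosb, Jun, Junb and Batf. It lay 671 bases inside the gene for Fosl2 and 34706 bases inside for Atf3, and outside the gene for Jund, so that these 3 windows are not at the GENCODE start. The stretches from −135 to −1 are printed 5′ to 3′ on the strand of the gene. Capitals mark every match, on either strand, to the letters searched, which were TGACTCA (TRE), TGACGTCA (CRE), TGACATCA (a TRE-like element), TGACG (the core of the CRE, which every CRE also contains), TATAAA and the CArG box of serum response factor. The core and TATAAA were added to the search after the sequences had been seen.
Fos (chr12:85473755-85473889, plus strand): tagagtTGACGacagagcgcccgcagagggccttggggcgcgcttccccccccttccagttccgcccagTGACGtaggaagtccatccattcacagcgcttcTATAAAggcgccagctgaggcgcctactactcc
Fosb (chr7:19310046-19310180, minus strand): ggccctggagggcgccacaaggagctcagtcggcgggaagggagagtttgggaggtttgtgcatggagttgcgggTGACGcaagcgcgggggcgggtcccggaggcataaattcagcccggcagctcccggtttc
Jun (chr4:95052223-95052357, minus strand): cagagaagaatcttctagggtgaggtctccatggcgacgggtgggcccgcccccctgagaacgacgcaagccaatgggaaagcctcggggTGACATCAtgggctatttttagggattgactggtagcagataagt
Junb (chr8:84978749-84978883, minus strand): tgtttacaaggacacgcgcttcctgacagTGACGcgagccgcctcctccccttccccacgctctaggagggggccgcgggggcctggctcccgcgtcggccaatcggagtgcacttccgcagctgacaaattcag

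Fos carried the core at −129 and −66 and TATAAA at −33. The core also lay at −60 in Fosb, −106 in Junb and −98 in Batf, and at −7 in the window of Atf3, where it reads CGTCA on the strand of the gene. Jun carried the TRE-like element TGACATCA at −45. In Junb, TATAAA began at the RefSeq start site itself, at position 1, outside the printed stretch. The GENCODE start of Junb (84978718, minus strand) lies downstream of the RefSeq start (84978748), so that TATAAA lies upstream of the GENCODE start. None of the 8 windows, which include the 3 away from the GENCODE start, held TGACTCA, TGACGTCA or a CArG box. Over all 32851 RefSeq windows of the same 300 bases, TGACG was found in 20.8%, TATAAA in 13.6%, TGACTCA in 5.20%, TGACATCA in 3.62%, TGACGTCA in 1.79% and a CArG box in 1.63%. A match describes letters only, and a missing match says only that these letters are not in the window.

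Reads on genes numbered 15523952 in the 0-day library, 15146983 in the 3-day library and 15514673 in the 5-day library. Levels are given as the deposited RPKM (reads scaled to the length of the gene and to all reads of the library on genes), so that levels of different genes can be compared per length. Changes are log2 ratios of RPKM + 0.1, an addition that makes the change of genes with low levels look smaller. The 95% intervals are exact (Clopper-Pearson) and cover only the error of counting, since reads amplified without molecular identifiers need not stem from separate molecules. Over all genes the ratio shifted upwards and rose with gene length. Over the genes tested (at least 1 RPKM in either library), the 3-day library had a median log2 ratio of 0.09 against 0 days, the 5-day library one of 0.31 against 0 days and 0.25 against 3 days. From the shortest to the longest decile of gene length, the median at 5 days went from −0.43 to 0.85. The library kit does not mark strand, so that reads of a gene and of an antisense partner cannot be told apart.

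AP-1 mRNAs were lower after 5 days of LECT2 than at 0 days. At 5 days all 9 subunits had a lower RPKM than at 0 days. Their median log2 ratio was −1.47, and 7 of 9 were at least 2-fold lower, namely Fosl1, Fosb, Junb, Jund, Jun, Atf3 and Fos. The share of all 11497 genes tested that were at least 2-fold lower was 5.91%, the share lower by any amount was 32.7%, and the share at least 2-fold higher was 15.5%. At 3 days 0 of 9 subunits had passed 2-fold in either direction, and few genes had. Of the 11325 genes tested then, 2.41% were at least 2-fold lower and 4.08% at least 2-fold higher. In a bulk sample, fewer cells of a type and less RNA per cell cannot be told apart.

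**Figure D1:**
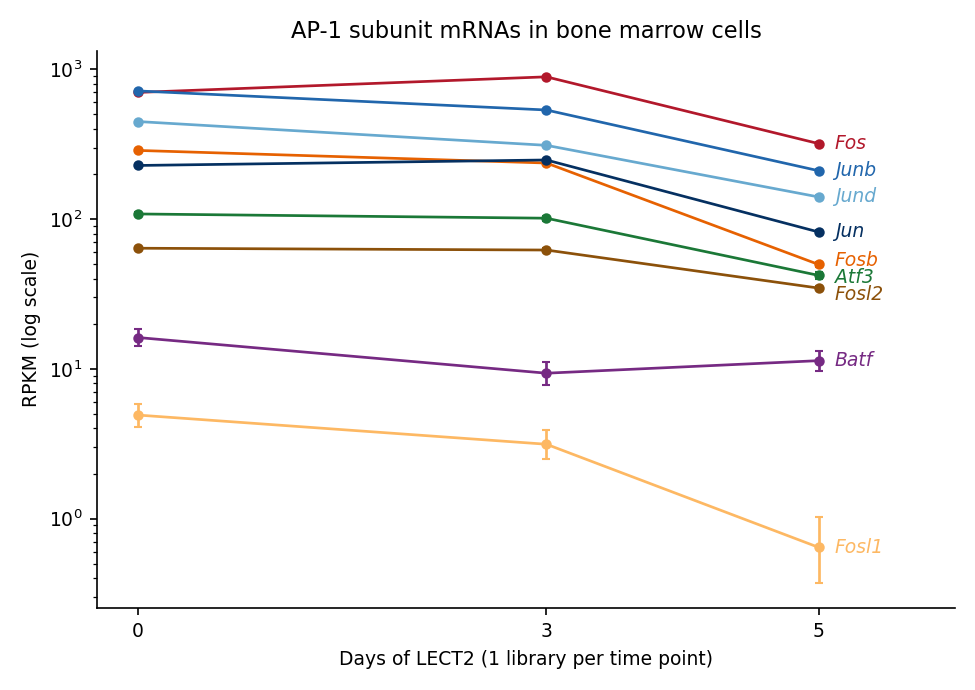
Level of each AP-1 subunit mRNA (RPKM, log scale) against days of LECT2 (1 library each). Points are the deposited values, vertical bars are 95% Poisson intervals for counting error (smaller than most points), and lines only join the 3 libraries; Fos runs from 700 to 890 and 319 RPKM, and Fosl1 from 4.91 to 3.14 and 0.643.

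Among the Fos genes, Fos is the prototype of the family, with a strong transactivation domain. It lies on chromosome 12 from 85473890 to 85477273 (plus strand, 4 exons, GENCODE M21, GRCm38) and had 22904, 28401 and 10419 reads at 0, 3 and 5 days. These counts correspond to 700 RPKM, 890 RPKM and 319 RPKM. The 3-day library was the highest and the 5-day library the lowest. Against 0 days, Fos had a log2 ratio of 0.35 (95% interval 0.32 to 0.37) after 3 days and of −1.14 (−1.17 to −1.10) after 5 days. At 3 days only 60 genes had a higher RPKM than Fos, against 124 genes at 0 days and 185 genes at 5 days.

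Fosb, which is also induced by acute stimuli and gives rise to a truncated splice form in several tissues, had the lowest ratio at 5 days among the subunits with more than 10 RPKM. It lies on chromosome 7 from 19302696 to 19310051 (minus strand, 4 exons), and had 287 RPKM, 237 RPKM and 49.7 RPKM at 0, 3 and 5 days, from 16859, 13555 and 2918 reads. The 0-day library was thus the highest and the 5-day library the lowest. The log2 ratio was −0.28 at 3 days (−0.31 to −0.25) and −2.53 at 5 days (−2.59 to −2.47). At 5 days the level was 17.3% of that at 0 days. Counts were summed over the gene, so that its splice forms were not separated.

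Fosl1 (Fra-1) and Fosl2 (Fra-2) lack the strong transactivation domain of Fos. Fosl1, on chromosome 19 from 5447547 to 5455946 (plus strand, 4 exons), was the least abundant subunit, with 130, 81 and 17 reads, or 4.91 RPKM, 3.14 RPKM and 0.643 RPKM at 0, 3 and 5 days. Its log2 ratio at 5 days was −2.75 with the deposited RPKM, and the interval of −3.76 to −2.20 contains that of Fosb. With a pseudocount of 1 the ratio of Fosl1 was −1.85, outside its interval. Fosl2, on chromosome 5 from 32135801 to 32157842 (plus strand, 4 exons), had 63.8 RPKM, 62.1 RPKM and 34.6 RPKM at 0, 3 and 5 days, from 5833, 5536 and 3159 reads. The 0-day and 3-day levels of Fosl2 did not differ beyond counting error, with a log2 ratio of −0.04 (−0.09 to 0.01), and the 5-day level was lower, with −0.88 (−0.95 to −0.82). Fosl2 is also the longest of the 9, with 5886 bases in the tables. Its ratio was −1.62 at 5 days and −0.49 at 3 days once the trend on gene length was taken out.

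Among the Jun genes, all of which consist of 1 exon, Jun and Junb are immediate early genes with partly opposing effects on proliferation. Jun lies on chromosome 4 from 95049034 to 95052222 (minus strand) and had 228 RPKM, 248 RPKM and 81.9 RPKM at 0, 3 and 5 days, from 11270, 11967 and 4051 reads. Its 3-day library was slightly the highest and its 5-day library the lowest. For Jun the log2 ratio was 0.12 at 3 days (0.08 to 0.16) and −1.47 at 5 days (−1.53 to −1.42). The direction of Jun at 3 days depended on the scaling, since it was 0.04 after TMM scaling and −0.07 with the trend on gene length removed.

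Junb lies on chromosome 8 from 84974484 to 84978718 (minus strand) and had the highest deposited RPKM of the subunits at 0 days. It had 716 RPKM, 535 RPKM and 210.1 RPKM, from 20465, 14897 and 5998 reads, so that the level was lower at each later time point. The log2 ratio of Junb was −0.42 at 3 days (−0.45 to −0.39) and −1.77 at 5 days (−1.81 to −1.73). Jund, on the same chromosome from 70698949 to 70700616 (plus strand), had 448 RPKM, 310.5 RPKM and 140.4 RPKM, from 19994, 13534 and 6268 reads. The deposited length of Jund, 2878 bases, exceeds the span of this GENCODE gene. Its level beside other subunits, its place in their order and its share of their sum therefore depend on the gene model. Jund had a log2 ratio of −0.53 at 3 days (−0.56 to −0.50) and −1.67 at 5 days (−1.71 to −1.63). Both genes were lowest in the 5-day library.

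Atf3, a stress-induced factor that can repress transcription as a homodimer, lies on chromosome 1 from 191170296 to 191218039 (minus strand, 4 exons). It had 108 RPKM, 101 RPKM and 42.0 RPKM at 0, 3 and 5 days, from 3325, 3039 and 1292 reads. Atf3 had a log2 ratio of −0.09 at 3 days (−0.17 to −0.02) and −1.36 at 5 days (−1.46 to −1.27). Batf, on chromosome 12 from 85686669 to 85709087 (plus strand, 3 exons), differed from the other subunits in its order of libraries. It had 16.2 RPKM, 9.35 RPKM and 11.3 RPKM, from 227, 128 and 159 reads, so that the 3-day library was the lowest. Its log2 ratio was −0.78 at 3 days (−1.12 to −0.47), −0.51 at 5 days (−0.81 to −0.21) and 0.28 from 3 to 5 days (−0.07 to 0.63), an interval that includes 0. Batf is the shortest gene of the 9, with 904 bases, and with the trend on gene length removed its ratios at 3 and 5 days were −0.37 and −0.22.

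**Figure D2:**
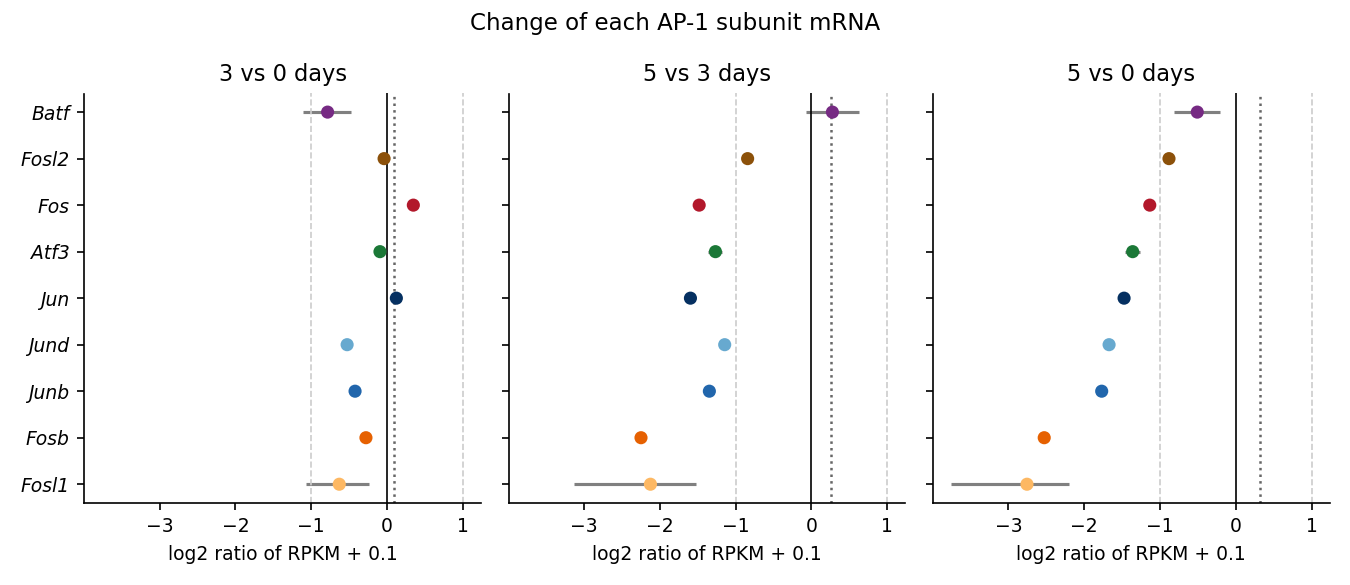
Log2 ratio of RPKM + 0.1 for each AP-1 subunit in the 3 comparisons of libraries; grey bars are 95% exact intervals of the ratio of counts (counting error only), dashed lines mark 2-fold and the dotted line is the median of all genes tested. At 5 against 0 days every point lies to the left of 0, from −2.75 for Fosl1 to −0.51 for Batf, whereas at 3 against 0 days no point passes 2-fold. Of all genes tested at 3 days, 2.41% were at least 2-fold lower and 4.08% at least 2-fold higher.

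The difference lay mainly between 3 and 5 days. At 3 days 7 of 9 subunits were lower than at 0 days by any amount, where 42.9% of the 11325 genes tested were, and the median log2 ratio was −0.28. The intervals of 6 subunits lay below 0, those of Fos and Jun above 0, and that of Fosl2 spanned 0. The share of all genes with such intervals was not computed. Over all genes, 2.41% were at least 2-fold lower and 4.08% at least 2-fold higher at 3 days. From 3 to 5 days, 7 of 9 subunits were at least 2-fold lower, against 3.45% of the 11375 genes tested, with 0 subunits and 1.95% of genes at least 2-fold higher. By any amount 8 of 9 were lower, against 26.8% of genes. The 3 comparisons share libraries, so that their ratios are not independent of each other.

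From 3 to 5 days the log2 ratios were −2.25 for Fosb (−2.31 to −2.19), −2.12 for Fosl1 (−3.13 to −1.52), −1.60 for Jun (−1.65 to −1.55) and −1.48 for Fos (−1.51 to −1.45). These were followed by Junb with −1.35 (−1.39 to −1.30), Atf3 with −1.27 (−1.36 to −1.17), Jund with −1.14 (−1.19 to −1.10) and Fosl2 with −0.84 (−0.91 to −0.78). With the deposited RPKM, Fosb and Fosl1 were the 2 subunits more than 4-fold lower, both in this comparison and from 0 to 5 days, beside 0.923% and 1.62% of all genes at least 4-fold lower. Fosl1 was not with a pseudocount of 1, when its ratio was −1.85 from 0 to 5 days and −1.33 from 3 to 5 days. From 0 to 5 days Junb also passed 4-fold after TMM scaling, with −2.08, and Jund with the length trend removed, with −2.08.

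The order of the levels shifted at 3 days and was then kept at 5 days. At 0 days the order was Junb, Fos, Jund, Fosb, Jun, Atf3, Fosl2, Batf and Fosl1. The counting intervals of Junb (707 to 726 RPKM) and Fos (691 to 709 RPKM) overlapped at 0 days, and those of all other neighbours in the order were apart. The counting interval of the ratio of Fos to Junb at 0 days, 0.959 to 0.996, nevertheless lay below 1. At 3 days and at 5 days Fos led, followed by Junb, Jund, Jun, Fosb, Atf3, Fosl2, Batf and Fosl1, with no overlap between the intervals of neighbours. Whether neighbours differ beyond the spread between mice cannot be seen from 1 library per time point. The place of Jund in the order also depends on the length taken for the gene. Even at 5 days, Fos, Junb and Jund remained above 97.1% of the genes with reads, whereas Fosl1 lay at the 27.3 percentile.

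The summed level of the 9 subunits was 2572 RPKM, 2395 RPKM and 889 RPKM at 0, 3 and 5 days. At 5 days the sum was 34.6% of that at 0 days, and at 3 days 93.1%. The subunits took 0.651%, 0.602% and 0.221% of all reads on genes. Fos, Junb and Jund together made up 72.5%, 72.4% and 75.2% of the sum at 0, 3 and 5 days. The mRNAs measured here say nothing about the amount of dimers, which depends on the proteins.

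The share of the Fos genes in the sum was highest at 3 days. They held 41.1%, 49.8% and 45.4% of the summed RPKM at 0, 3 and 5 days, and the Jun genes held 54.1%, 45.6% and 48.6%. The ratio of the summed Fos genes to the summed Jun genes was therefore 0.759, 1.09 and 0.934. Fos alone took 27.2%, 37.2% and 35.8%, while Fosb took 11.2%, 9.88% and 5.59%.

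**Figure D3:**
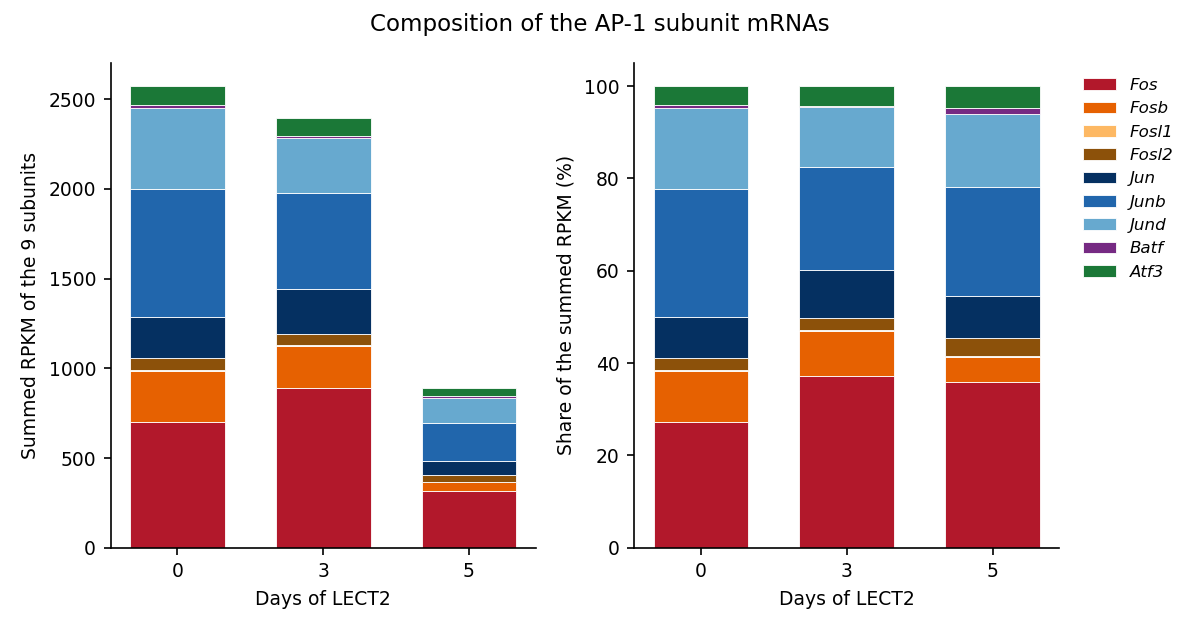
Summed RPKM of the 9 AP-1 subunits (left) and the share of each subunit in that sum in percent (right) at 0, 3 and 5 days of LECT2, 1 library each; the segment of Fosl1, at most 0.191%, is too thin to be seen. The sum is 2572, 2395 and 889 RPKM, and the segment of Fos is the largest at 3 and 5 days.

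Ratios of 2 subunits within a library do not depend on how libraries are scaled to each other. The ratio of Fos to Junb was 0.977 at 0 days (95% counting interval 0.959 to 0.996), 1.66 at 3 days (1.63 to 1.70) and 1.52 at 5 days (1.47 to 1.57). The ratio of Fos to Fosb went from 2.44 (2.39 to 2.49) to 3.76 (3.69 to 3.84) and 6.41 (6.15 to 6.68), so that the 2 genes moved apart at each step. Fosl2, at 0.222 of the level of Fosb at 0 days and 0.262 at 3 days, reached 0.696 at 5 days (0.662 to 0.732). The ratio of Jun to Jund was 0.509, 0.798 and 0.584, highest at 3 days, with intervals that did not overlap (0.497 to 0.521, 0.779 to 0.818 and 0.561 to 0.607). The ratio of Jund to Junb stayed within a narrow range, at 0.625, 0.581 and 0.668. These differences between libraries were larger than counting error, and the spread between mice was not measured.

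The genes around AP-1 were read from lists written from general knowledge, and only members whose mean reached 1 RPKM enter the medians and counts. The other bZIP factors, among them partners of Fos and Jun, had a median log2 ratio of 0.30 at 5 days over 29 genes, next to 0.31 over all genes tested. This median turned to −0.01 after TMM scaling and −0.17 with the length trend removed. Of the 29 genes 2 were past 2-fold upwards and 2 downwards, where 15.5% and 5.91% of all genes were. The most abundant were Atf4, the effector of the integrated stress response, with 448, 291 and 257 RPKM at 0, 3 and 5 days, Cebpb, a myeloid factor of emergency granulopoiesis, with 153, 143 and 90.7 RPKM, and Nfe2, a megakaryocyte and erythroid factor, with 109, 138 and 95.4 RPKM. The largest ratios belonged to Maff, a small Maf protein, with −2.74 (−3.21 to −2.41), and Atf7, a CRE-binding relative of Atf2, with 2.29 (1.92 to 2.93).

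The MAP kinase cascade, which phosphorylates Fos and Jun and the factors at their promoters, had a median of 0.40 at 5 days over 23 genes, or 0.10 after TMM scaling and −0.16 with the length trend removed. At least 2-fold higher were 2 genes and at least 2-fold lower was 1, beside the same 15.5% and 5.91% of all genes. Mapk3 (Erk1), the most abundant, had 192, 171 and 130.1 RPKM and a log2 ratio of −0.56 (−0.62 to −0.50). Mapkapk2, a kinase downstream of p38, had a ratio of 0.40 (0.35 to 0.46) and the ribosomal S6 kinase Rps6ka1 had 0.65 (0.59 to 0.72). The extremes were Mapk13 (p38 delta) with −2.05 (−2.19 to −1.93), and Rps6ka3 with 1.73 (1.54 to 1.96). These are mRNA levels, and kinase activity was not measured.

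Among the factors that act at the Fos and Jun promoters, 12 of 13 had a higher RPKM at 5 days than at 0 days, as did 67.3% of all genes. Over 13 genes the median was 0.56 after 3 days and 0.82 after 5 days, when 4 of them exceeded 2-fold upwards and 0 downwards, beside 15.5% and 5.91% of all genes. Mef2d, a MEF2 factor of the Jun promoter, had 24.9, 48.2 and 67.4 RPKM. Mkl1, a cofactor of serum response factor, had 21.2, 42.2 and 40.9 RPKM, and Stat3, which acts downstream of IL-6 type cytokines, had 43.3, 51.4 and 43.8 RPKM. Mef2a and the ternary complex factor Elk4 had the largest ratios at 5 days, 2.21 (2.02 to 2.44) and 1.73 (1.57 to 1.92). These genes are 2459 to 8431 bases long, and with the trend on gene length removed the median of the list was 0.22 at 3 days and 0.14 at 5 days.

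The list of turnover factors and coregulators of AP-1 had a median of 0.05 at 5 days over 14 genes, which turned to −0.26 after TMM scaling and −0.11 with the length trend removed. There was 1 gene at least 2-fold higher and 1 lower, beside 15.5% and 5.91% of all genes. Zfp36 (tristetraprolin), which promotes the decay of mRNAs with AU-rich elements and is itself an immediate early gene, had 1228, 1055 and 395 RPKM, with a ratio of −1.64 (−1.67 to −1.61) at 5 days. Irf8, a partner of Batf-containing dimers, had 111, 113 and 172 RPKM. The coactivator Ep300 had a ratio of 1.47 (1.40 to 1.57).

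Genes known from other work as AP-1 targets differed in direction. The median over 24 genes was −0.25 after 3 days and −0.46 after 5 days (−0.77 after TMM scaling and −0.82 with the length trend removed), when 8 genes were past 2-fold downwards and 1 upwards, beside 5.91% and 15.5% of all genes. Ptgs2, the inducible cyclooxygenase, had 33.05, 39.15 and 6.03 RPKM and a ratio of −2.44 (−2.61 to −2.30). Plaur, the urokinase receptor, had 550, 325 and 122 RPKM and a ratio of −2.18 (−2.24 to −2.11). Mmp9, a protease of neutrophil granules, had 353, 556 and 100.9 RPKM, so that it was highest at 3 days, as were Fos and Jun. Vim, the intermediate filament vimentin, went the other way, with 507, 607 and 720 RPKM. Mmp9 is also a marker of late neutrophils, Spp1 is also one of osteolineage and stromal cells, and Dusp1 is also an immediate early gene. Mmp3 and Il2 were listed but have no row in the tables.

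For the other immediate early genes the median ratio was −1.64 after 5 days, beside −1.47 for the 9 subunits. The median was taken over 17 genes, 13 of which were at least 2-fold lower and 0 at least 2-fold higher, beside 5.91% and 15.5% of all genes. Klf2, a zinc finger factor of quiescent leukocytes, had 1147, 617 and 92.8 RPKM, and Egr1 had 284, 209 and 34.2 RPKM. These 2 had the largest ratios of the list. Higher by any amount at 5 days were 2 of the 17, beside 67.3% of all genes. They were Myc with 0.38 (0.25 to 0.50) and Klf4 with 0.10 (0.02 to 0.19), both named after their values had been seen. At 3 days the median of this list was −0.32, beside −0.28 for the 9 subunits.

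**Figure D4:**
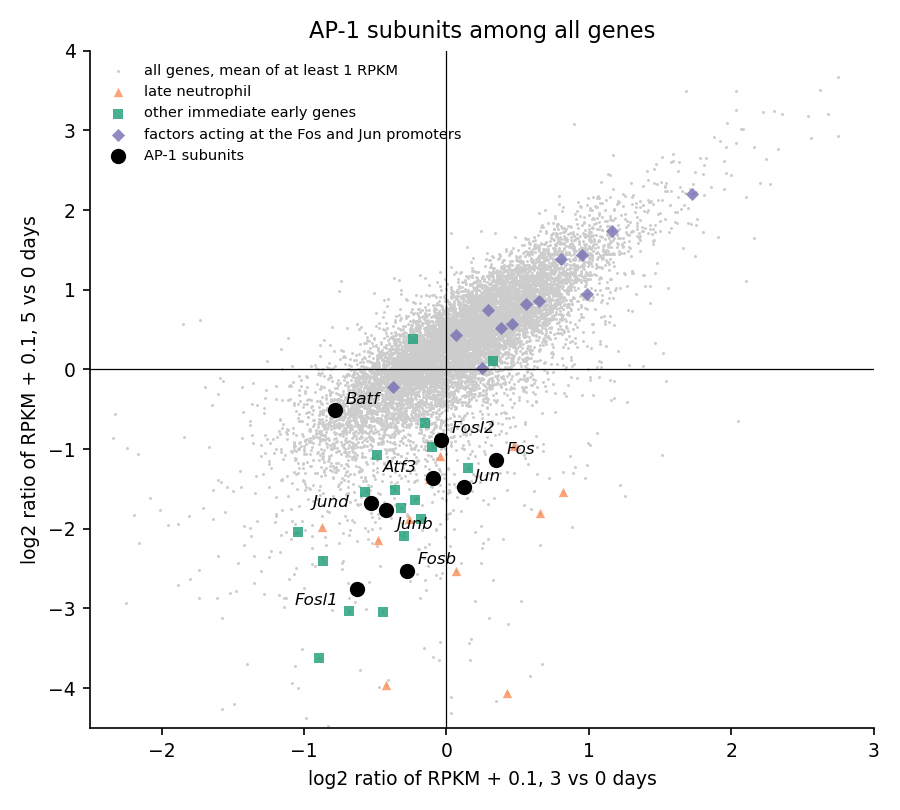
Log2 ratio at 5 against 0 days (vertical) and at 3 against 0 days (horizontal) for the 11144 genes whose mean reached 1 RPKM; both axes share the 0-day library, and 20 genes lie outside the axes. On the vertical axis all 9 AP-1 subunits (black), 15 of the 17 other immediate early genes and all 12 late neutrophil genes lie below 0, whereas 12 of the 13 factors acting at the Fos and Jun promoters lie above 0. Of the 11497 genes tested, 32.7% were lower and 67.3% higher at 5 days.

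Of the markers of cells that BM can hold, those of late neutrophils and of osteolineage and stromal cells had medians more than 2-fold lower at 5 days. All 12 late neutrophil markers with a row (Ly6g has none) had a lower RPKM at 5 days, 11 of them at least 2-fold, with a median log2 ratio of −1.84. Of all genes 32.7% were lower and 5.91% at least 2-fold lower. Their summed level was 149971, 116110 and 41402 RPKM at 0, 3 and 5 days. S100a9 and S100a8, the most abundant, had ratios of −2.14 (−2.15 to −2.13) and −1.88 (−1.90 to −1.87) at 5 days. At 3 days the median of the list was −0.08, or 0.20 with the length trend removed. The part of late neutrophils in the lower AP-1 levels at 5 days was not tested.

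All 6 promyelocyte markers and 11 of 15 macrophage and monocyte markers had a higher RPKM at 5 days, beside 67.3% of all genes, a share to which that of the macrophage and monocyte markers was close. Over 6 promyelocyte genes the median was 0.56 (0.25 after TMM scaling) and the sum 2248, 2082 and 3631 RPKM, with Mpo, a primary granule enzyme, at 435, 581 and 1237 RPKM and Elane, neutrophil elastase, at 1142, 923 and 1451 RPKM. Over 15 macrophage and monocyte genes the median was 0.71 (0.40 after TMM scaling) and the sum 1559, 1770 and 2098 RPKM, with 7 genes at least 2-fold higher and 1 lower, beside 15.5% and 5.91% of all genes. Ly6c2 had 932, 993 and 1138 RPKM, and Mpeg1 had 127, 214 and 307 RPKM. The 4 markers that were lower, named after their values had been seen, were Cd14 with a ratio of −1.99 (−2.11 to −1.89), and the complement genes C1qa with −0.20, C1qb with −0.05 and C1qc with −0.06, of which the last 2 have intervals that include 0 and turned to 0.14 and 0.13 with the length trend removed.

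The lymphoid and erythroid markers also varied. The medians at 5 days were −0.23 for 10 B cell genes, −0.12 for 11 T and NK cell genes (Trbc2 has no row), 0.09 for 10 erythroid genes and −0.06 for 6 megakaryocyte genes. In the same order they were −0.54, −0.43, −0.21 and −0.36 after TMM scaling, and −0.44, −0.48, −0.26 and −0.29 with the length trend removed. The summed B cell level was 2055, 1667 and 1499 RPKM, that of T and NK cells 230.4, 164 and 228 RPKM, that of erythroid cells 4487, 3666 and 1654 RPKM, and that of megakaryocytes 41.0, 21.0 and 38.0 RPKM. The promyelocyte, T and NK cell and megakaryocyte sums were thus lowest at 3 days, as was Batf. Below 0 at 5 days were 8 of 10 B cell genes, 8 of 11 T and NK cell genes and 4 of 6 megakaryocyte genes, beside 32.7% of all genes. Of these 3 lists 1 gene was at least 2-fold higher, Rag1 of the B cell list with 1.21, and 1 at least 2-fold lower, Cd3d of the T and NK cell list with −1.99, both named after their values had been seen. Of the most abundant members, Cd79a had 827, 614 and 532 RPKM and Cd79b 523, 417 and 372 RPKM, Nkg7 had 119.9, 74.7 and 113.8 RPKM and Il7r 26.7, 38.6 and 50.8 RPKM, and the globin genes Hba-a1 and Hbb-b1 had ratios of −1.92 and −1.69 at 5 days. These globins were the only erythroid markers at least 2-fold lower, beside 5.91% of all genes, and 6 of the 10 were above 0, beside 67.3% of all genes. Slc4a1, named after its value had been seen, had 0.67. Itga2b had 10.8, 8.34 and 11.2 RPKM and Ppbp 9.31, 4.12 and 11.2 RPKM. Osteolineage and stromal genes were low, with a sum of 105, 95.05 and 38.7 RPKM over the list, and 8 of 9 were at least 2-fold lower at 5 days, beside 5.91% of all genes, among them Spp1 with −1.80 and Col1a1 with −1.31. No marker with a row was at 0 reads in any library. The part of these cell types in the AP-1 levels was not tested.

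The genes nearest to each subunit by the pair of log2 ratios at 3 and 5 days were looked up among 6161 genes whose mean reached 10 RPKM. The measure is the distance in log2 units over these 2 ratios, which rest on 3 libraries, so that it is a description. Fos was nearest to Rsad2, an interferon-induced gene with 60.7, 77.6 and 27.5 RPKM at 0, 3 and 5 days (distance 0.01), to Fam213a (0.02) and to Lrg1 (0.03). Among the nearest to Jun were Grina (0.06) and Bmx (0.08). Junb was nearest to Lcn2, a granule protein of neutrophils with 10826, 8085 and 3136 RPKM (0.02), to Socs3 (0.07) and to Tnfaip3 (0.07), and Jund to Neurl3 (0.04), H2-K2 (0.08) and Coq10b (0.09).

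Fosb had few genes near it, with 5 genes within a distance of 0.2, of which 1700047M11Rik (0.08), Ccrl2 (0.08) and Clec4e (0.13) were the nearest. Fosl1 had 4, among them Plk2 (0.09) and AA467197 (0.12). Fosl2 had 40 genes within 0.2, the nearest being AF251705 (0.06), Tiparp (0.07) and S1pr1 (0.07). Atf3 had 24, with Sparc (0.01), Cd9 (0.03) and Ltf (0.03) as the nearest. Batf lay in the most crowded stretch, with 163 genes within 0.2, the nearest being Twistnb (0.03), Rpl14, a ribosomal protein gene (0.05), and Pfdn4 (0.06). Fos, Jun, Junb and Jund had 14, 11, 15 and 17 genes within 0.2.

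The lower levels at 5 days were found under each scaling tried. After TMM scaling, which brings the median ratio of all genes at 5 days from 0.31 to 0.01, 8 of 9 subunits were at least 2-fold lower at 5 days, against 10.2% of all genes, with a ratio of −1.44 for Fos and −2.84 for Fosb. With the trend on gene length removed, 8 of 9 were at least 2-fold lower, against 7.61% of all genes. In both cases the additional subunit was Fosl2, and Batf stayed within 2-fold.

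**Figure D5:**
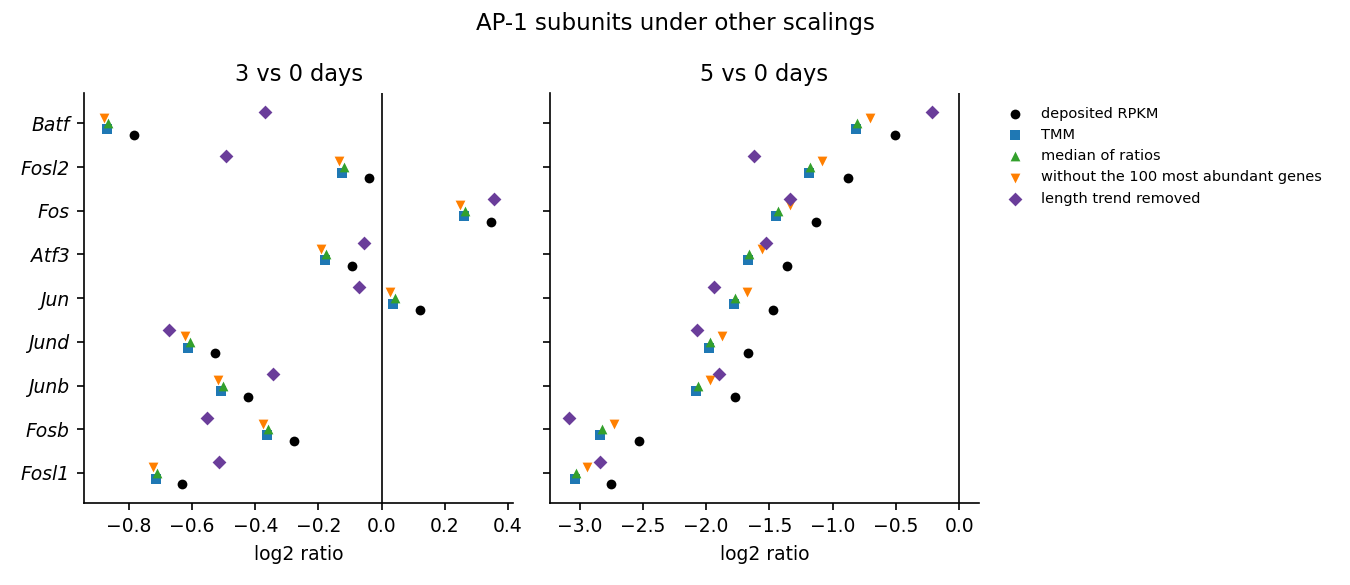
Log2 ratio of each AP-1 subunit at 3 against 0 days (left) and 5 against 0 days (right) with the deposited RPKM and with 4 other ways of scaling the 3 libraries; the 2 horizontal axes differ in range. At 5 days all points lie below 0 under every scaling, and at 3 days Jun lies between 0.12 and −0.07 on either side of 0.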

How the data were processed

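BM cell mRNA was sequenced from 1 library per time point (0, 3 and 5 days of LECT2). Per the labels the RNA was extracted with Trizol, enriched with oligo(dT) beads and prepared with a TruSeq kit. The authors deposited 3 tables, 1 for each pair of time points, with the read count of each gene in both libraries, its length and its RPKM. The methods name Cufflinks 1.0.3, the submitters' processing notes name build mm8, and the aligner is not given in the sources used here. The deposited RPKM equalled count divided by length and by all reads on genes (tolerance 0.1%), except in 18 rows at 0 days and 14 at 3 days, none above 36 reads. The authors list genes without reads at 0.01 RPKM, which was set to 0 here. The tables also hold the authors' own log2 ratio, direction, p-value and false discovery rate, which were not used. No column belonged to another series.

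The computed log2 ratio used RPKM with a pseudocount of 0.1. Genes with at least 1 RPKM in either library were counted as tested, with a threshold of 2-fold. Of several rows for a symbol, that with the highest mean RPKM was used. The reads on genes, 15146983 to 15523952 per library, make 1 read of a gene of 1000 bases worth about 0.0644 RPKM at 0 days. Level intervals are exact Poisson intervals, ratio intervals between libraries are Clopper-Pearson intervals, and ratio intervals within a library are normal approximations on the log scale.

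Named genes are all 9 subunits, for each pathway list the 3 most abundant and the 2 with the largest ratio at 5 days (mean of at least 1 RPKM, more than 10 reads in each library), the 2 most abundant of each marker list, and the 3 nearest genes of each subunit. A few genes that this rule names are not reported here. The members, lists and rule were chosen with earlier results of these data known. Positions came from GENCODE M21 (GRCm38) and promoters from RefSeq (GRCm38.p6), not from the authors' build.

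The alternatives were pseudocounts of 1 and 0.01, TMM (edgeR 4.0.16), median-of-ratios (DESeq2 1.42.0), the reads outside the 100 most abundant genes, summing the rows that share a symbol, removal of the length trend (lowess, span 0.3, statsmodels 0.14.6), minimums of 5 RPKM or none, and a threshold of 4-fold. R 4.3.3 ran the scalings, and Python 3.11.15 everything else (scipy 1.17.1 for intervals, pandas 2.3.3 and numpy 2.4.6 for tables). The log2 ratios, the 2-fold threshold and the ratio intervals between libraries were tested on simulated counts. The other steps were not.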

Additional observations from a re-analysis of the deposited data

Results flagged for a closer look

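Fos and Jun lay on opposite sides of the 0-day library at the 2 later time points. The log2 ratio of Fos was 0.35 at 3 days and −1.14 at 5 days, and that of Jun was 0.12 at 3 days and −1.47 at 5 days. There is 1 library per time point and both ratios share the 0-day library, so that the difference between 3 and 5 days was not tested. The direction of Jun at 3 days was not the same under every scaling, with 0.04 after TMM scaling and −0.07 without the length trend.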

How the results depend on the processing

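There was no replicate to leave out, with 1 library per time point. No paired analysis was possible because the labels carry no replicate numbers. At 5 days all 9 subunits had ratios below 0 under the 7 alternatives that recompute single ratios. The alternatives for the summed level and for the lists, and those for all genes other than the minimums, were added after seeing the data.

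The median log2 ratio of the 9 subunits at 3 days, −0.28, was −0.36 with TMM, −0.36 with median-of-ratios, −0.38 when scaled to the reads outside the top 100 genes, and −0.37 without the length trend. In the same order of settings, the median at 5 against 0 days, −1.47, was −1.78, −1.77, −1.68 and −1.89, and that at 5 against 3 days, −1.35, was −1.57, −1.56, −1.45 and −1.58. The log2 ratio of the summed level at 3 days, −0.10, was −0.19, −0.18, −0.20 and −0.15, that at 5 against 0 days, −1.53, was −1.84, −1.83, −1.73 and −1.79, and that at 5 against 3 days, −1.43, was −1.65, −1.65, −1.53 and −1.68. With a threshold of 4-fold, 2 subunits in place of 7 were lower at 5 against 0 days, and 2 in place of 7 at 5 against 3 days. The ratio of Jun at 3 days turned from 0.12 to −0.073 with the length trend removed. With that setting 11 in place of 7 of the 14 other lists had a median below 0 at 5 against 0 days, and 10 in place of 6 at 5 against 3 days. The cause was not tested.

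Of 27 single ratios of subunits, 22 moved by more than their counting interval with TMM and 21 with median-of-ratios, all downwards. With the length trend removed 19 moved without a change of direction, 17 of them downwards. Jun at 3 days, not among these 19, also left its interval and turned to −0.07. With a pseudocount of 1 the 2 that moved, both of Fosl1, went up to −1.85 and −1.33. With a pseudocount of 0.01 or the sum of all rows, 0 moved.

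Over all genes, those at least 2-fold lower at 3 days, 273, were 120 with a pseudocount of 1, 118 with a minimum of 5 RPKM and 688 with no minimum, and those higher, 462, were 190, 236 and 830, and 293 with the length trend removed. At 5 against 0 days, 680 genes were lower, or 1162 with TMM, 1142 with median-of-ratios, 421 with a minimum of 5 RPKM and 1180 with none. There 1786 were higher, or 1140 with a pseudocount of 1, 816 with TMM, 842 with median-of-ratios, 1086 with the reads outside the 100 most abundant genes and 581 without the length trend. At 5 against 3 days, 393 were lower, or 258 with a minimum of 5 RPKM and 717 with none. There 222 were higher, or 52 with a pseudocount of 1, 66 with TMM, 68 with median-of-ratios, 115 with the reads outside the 100 most abundant genes, 75 with the length trend removed, 94 with a minimum of 5 RPKM and 578 with none. Depth limited Fosl1, with 17 reads at 5 days, and Batf, with 128 reads at 3 days.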
